A study of Mus musculus with 6 samples.

Results

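Glycogen enzymes and the glycogen-targeting subunits of protein phosphatase 1 (PP1) were followed in livers expressing FXR-WT or Y67F-FXR. The group held 9 genes of the 23284 genes counted. They were 4 targeting subunits (Ppp1r3g, Ppp1r3b, Ppp1r3c and Ppp1r3d), 3 genes of glycogen synthesis (Gys2, Gbe1 and Ugp2) and 2 genes of glycogen breakdown (Pygl and Phka2). The genes were chosen by pathway and with the values of this same comparison known, among them the large difference in Ppp1r3g. Their differences between the groups are therefore given as a description, without a test.

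Both groups were male FXR-floxed mice injected at 8 weeks of age with AAV8-TBG-Cre, which removes the floxed FXR gene. The thyroxine-binding globulin (TBG) promoter restricts expression to hepatocytes. One group also received a vector for FXR-WT (n = 3 livers) and the other a vector for Y67F-FXR (n = 3 livers). Y67F-FXR is the form that Src cannot phosphorylate at the mutated tyrosine. After 4 weeks, all mice ate chow with 0.5% cholic acid for 6 h before the liver was taken, so every liver of both groups had been exposed to the bile acid, and no liver without it was measured. The labels do not say which mice of each group were sequenced. FXR is the nuclear receptor for bile acids (BAs).

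Glycogen is the branched glucose polymer in which the liver stores dietary glucose. UDP-glucose made by Ugp2 is added to the chain by glycogen synthase (Gys2 in liver) and branched by Gbe1, and the chain is shortened by glycogen phosphorylase (Pygl in liver) after activation by phosphorylase kinase, of which Phka2 is the liver alpha subunit. PP1 dephosphorylates both enzymes, which activates the synthase and inactivates the phosphorylase. The targeting subunits bind PP1 to glycogen. Ppp1r3b is the major form in liver, Ppp1r3c is found in many tissues, and Ppp1r3g is a form linked to feeding and fasting.

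The stretch before the RefSeq start is shown for the targeting subunit that was higher in Y67F-FXR livers, Ppp1r3g, and for one that was lower, Ppp1r3c, so that the pair can be read side by side. Each line holds 250 bases of GRCm38.p6 as listed by RefSeq, 5′ to 3′ on the gene's own strand. They lie at chr13:35967656-35967905 on the plus strand and chr19:36736605-36736854 on the minus strand. Capitals mark the motif matches described after the lines.
Ppp1r3g: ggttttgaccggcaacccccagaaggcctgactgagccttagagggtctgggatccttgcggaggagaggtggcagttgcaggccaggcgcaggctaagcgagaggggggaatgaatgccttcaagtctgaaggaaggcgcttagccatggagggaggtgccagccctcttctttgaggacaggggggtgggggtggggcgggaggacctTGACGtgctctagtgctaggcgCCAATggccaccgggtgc
Ppp1r3c: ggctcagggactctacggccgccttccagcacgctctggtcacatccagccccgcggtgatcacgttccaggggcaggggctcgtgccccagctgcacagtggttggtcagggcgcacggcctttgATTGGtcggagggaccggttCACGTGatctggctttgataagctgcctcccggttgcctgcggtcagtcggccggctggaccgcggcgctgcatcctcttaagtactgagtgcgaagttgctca
The motifs searched, on both strands, were an inverted repeat of AGGTCA with 1 base between (the classical FXR element), its unit AGGTCA, the cyclic AMP response element TGACGTCA, its unit TGACG, the forkhead motif GTAAACA, the E-box CACGTG, the glucocorticoid receptor unit AGAACA, the CCAAT box and the TATA box given as TATAAA. Each unit lies within its longer motif and the matches overlap to that extent. The window before the Ppp1r3g start held TGACG 40 bases upstream, a string found in 20.8% of all 32851 promoters of 300 bases, and CCAAT 18 bases upstream, found in 37.4%. The window before the Ppp1r3c start held CACGTG 104 bases upstream, found in 7.15% of promoters, and CCAAT on the opposite strand 124 bases upstream. Promoters were listed for 7 of the 9 genes, without Ppp1r3b and Gys2. Among the others, Pygl held AGGTCA 128 bases upstream (16.3% of promoters) and TGACG 44 bases upstream, Phka2 held AGAACA 153 bases upstream (19.0%), and Ppp1r3d held TGACG at 222 and 68 bases and CACGTG at 226 bases upstream, the latter overlapping the first TGACG. Ugp2 held CCAAT 49 bases before 1 of its listed starts, and Gbe1 held none of the motifs. The inverted repeat was in 0.00913% of promoters and in none of those 7 genes' windows, and neither were TGACGTCA (1.79% of promoters), GTAAACA (3.65%) or TATAAA (13.6%). These matches are descriptions of letters, and no binding was measured.

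Libraries held 19551113 to 22053320 reads on genes. Values are reads scaled to a common library size (CPM), on totals adjusted by TMM factors, and levels compared between genes are CPM per kilobase of exon (RPKM). Of the genes counted, 12453 passed the filter on low counts and were tested with edgeR's quasi-likelihood test. A gene counted as called when its p, adjusted by the Benjamini-Hochberg method, was under 0.05 and the fitted fold exceeded 1.5. Mouse Nr1h4, the FXR gene, had 152 to 209 CPM in FXR-WT and 169 to 186 CPM in Y67F-FXR livers, and mouse and transgene reads on this gene cannot be told apart. Hepatocyte markers were abundant in every liver (89364 to 111087 CPM summed over 5 genes). Of the erythrocyte markers, Alas2 was at 80.1 to 114 CPM, while Hba-a1 and Hbb-b1 were listed at 0. Those 2 genes share exon bases with Hba-a2 and Hbb-b2, and reads on several genes were not counted, so their 0 does not show that erythrocyte RNA was absent.

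Of the 9 genes, 8 passed the low-count filter. The groups did not overlap for 5 of these 8, of which Ppp1r3g, Gys2 and Phka2 were higher and Ppp1r3b and Ppp1r3c lower in Y67F-FXR. Groups without overlap were found for 20.6% of all tested genes, and since the 9 genes were chosen on this comparison nothing is read from their count. Phka2 lost its separation with scaling by library totals, which left 4. The median fitted log2 fold change was 0.03 over the 8 genes and 0.01 over all tested genes.

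**Figure D1:**
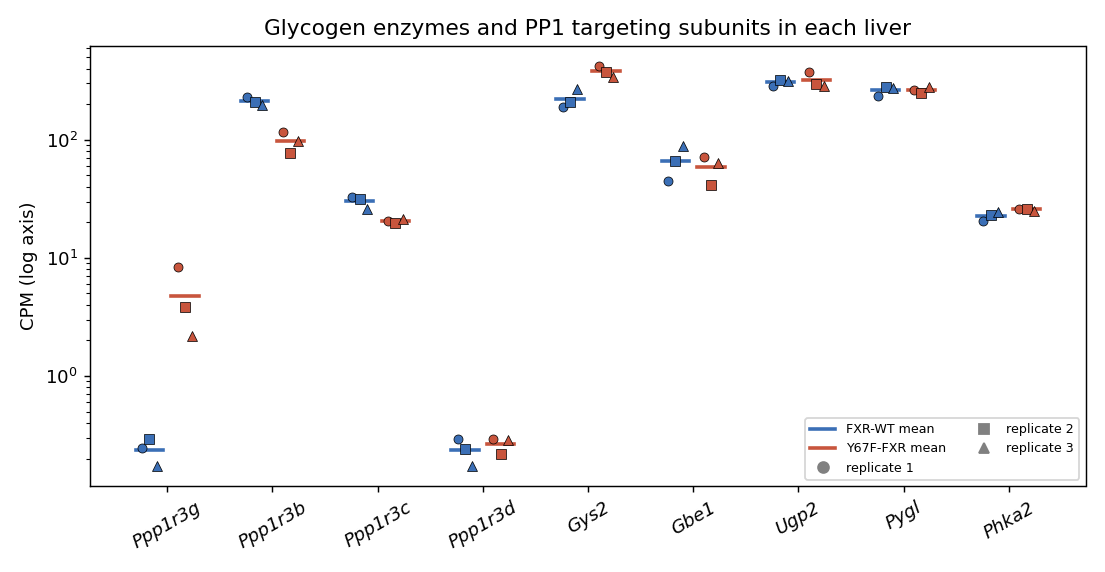
Level of each glycogen enzyme and PP1 targeting subunit in each liver, in CPM on a log axis. Points are single livers (n = 3 per group), marked by replicate, and bars are group means. Ppp1r3g sits below 0.3 CPM in FXR-WT livers and above 2 CPM in Y67F-FXR livers, Ppp1r3b and Ppp1r3c sit lower and Gys2 higher in Y67F-FXR, and the points of Gbe1, Ugp2, Pygl and Ppp1r3d overlap.

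Ppp1r3g (chromosome 13 of mm9, 36059775 to 36062257, plus strand, 2 exons) was barely detected in FXR-WT livers and was low but present in all 3 Y67F-FXR livers. It had 5, 6 and 4 reads in FXR-WT replicates 1, 2 and 3 and 171, 71 and 46 reads in Y67F-FXR replicates 1, 2 and 3. The lowest Y67F-FXR liver thus had more reads than the 3 FXR-WT livers together, which had 15. Poisson intervals at 95% reached up to 13.1 reads in the FXR-WT livers and down to 33.7 reads in the Y67F-FXR livers. These intervals cover counting error only. They are too narrow even for that, since both ends of a fragment could be counted. On the CPM scale the gene was at 0.236 ± 0.0595 (SD, n = 3) in FXR-WT and 4.79 ± 3.16 (SD, n = 3) in Y67F-FXR. The 3 Y67F-FXR livers differed widely among themselves, at 8.31, 3.87 and 2.20 CPM, a coefficient of variation of 65.9%.
The ratio of the summed Ppp1r3g reads, 288 over 15 and scaled for depth, was 20.6. No interval is given for this ratio, since the gene was chosen with the difference known. The fitted log2 fold change was 4.32 (SE 0.598), and it ranged from 3.66 without Y67F-FXR replicate 1 to 4.67 without Y67F-FXR replicate 3. The low-count filter asked for 0.493 CPM in 3 libraries, and Ppp1r3g exceeded it in 0 FXR-WT and 3 Y67F-FXR livers. A gene that enters the test only through the livers in which it is high had to differ between the groups. Even in the Y67F-FXR livers its level was small against that of Ppp1r3b.

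Ppp1r3b (chromosome 8 of mm9, 36438795 to 36451191, plus strand), the major liver targeting subunit, was lower in every Y67F-FXR liver than in any FXR-WT liver. It was at 230, 208 and 197 CPM in FXR-WT replicates 1 to 3 and at 117, 76.7 and 97.3 CPM in Y67F-FXR replicates 1 to 3. The highest Y67F-FXR liver had 0.594 of the lowest FXR-WT liver's level. Group means were 212 ± 16.9 and 97.0 ± 20.2 CPM (SD, n = 3 each), a 2.18-fold lower level in Y67F-FXR, with a fitted log2 fold change of -1.13 (SE 0.169). Counts ran from 1406 to 4709 reads a liver. The log2 fold change stayed between -1.28 and -0.99 with any 1 liver left out.
Ppp1r3c (chromosome 19 of mm9, 36806221 to 36811094, minus strand) lay in the same direction with a smaller difference. It was at 33.1, 31.6 and 25.8 CPM in the FXR-WT livers and at 20.7, 19.9 and 21.5 CPM in the Y67F-FXR livers. The groups were close but did not overlap, and the Y67F-FXR livers had a coefficient of variation of 3.93%. Its fitted log2 fold change was -0.54 (SE 0.134).
Ppp1r3d (chromosome 2 of mm9, 178145912 to 178149177, minus strand) was near the limit of detection in both groups. It had 6, 5 and 4 reads in the FXR-WT livers and 6, 4 and 6 reads in the Y67F-FXR livers, and it did not pass the low-count filter. The ratio of summed reads scaled for depth was 1.15, with a 95% Poisson interval of 0.53 to 2.49. The interval covers counting error only and is too narrow, since both ends of a fragment could be counted. A difference inside that interval was not detectable at this depth.

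Per length, the summed level of the targeting subunits was lower in Y67F-FXR livers, and the mix of forms differed. Ppp1r3b, chosen with its values known, was most of the sum, so the sum mainly restates its level. Only Ppp1r3b and Ppp1r3c were lower without overlap, Ppp1r3g was higher, and the other forms overlapped. The RPKM of all 7 targeting subunit genes (Ppp1r3a to Ppp1r3g) summed to 67.9, 62.6 and 58.7 in the FXR-WT livers and to 41.0, 28.2 and 33.8 in the Y67F-FXR livers, without overlap. Ppp1r3b made up 79.6% ± 0.854 of this sum in FXR-WT and 66.9% ± 2.01 in Y67F-FXR (SD, n = 3 each). It was the largest part in every liver of both groups. Ppp1r3c made up 17.8% ± 1.28 and 23.0% ± 3.82, a higher mean share in Y67F-FXR although its own level was lower there, and its share in Y67F-FXR replicate 1 (18.8%) lay within the FXR-WT range.
Ppp1r3g made up 0.162% ± 0.0372 of the summed RPKM in FXR-WT and 8.79%, 5.96% and 2.82% in Y67F-FXR replicates 1, 2 and 3. The RPKM of Ppp1r3b was 391 to 624 times that of Ppp1r3g in the FXR-WT livers and 7.71, 10.8 and 24.2 times that of Ppp1r3g in the Y67F-FXR livers. Ppp1r3e, a targeting subunit outside the 9 genes, made up 2.14% ± 1.27 and 3.68% ± 1.03, and its livers overlapped between the groups. Ppp1r3a, the muscle form, made up at most 0.0435% in any liver.

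**Figure D2:**
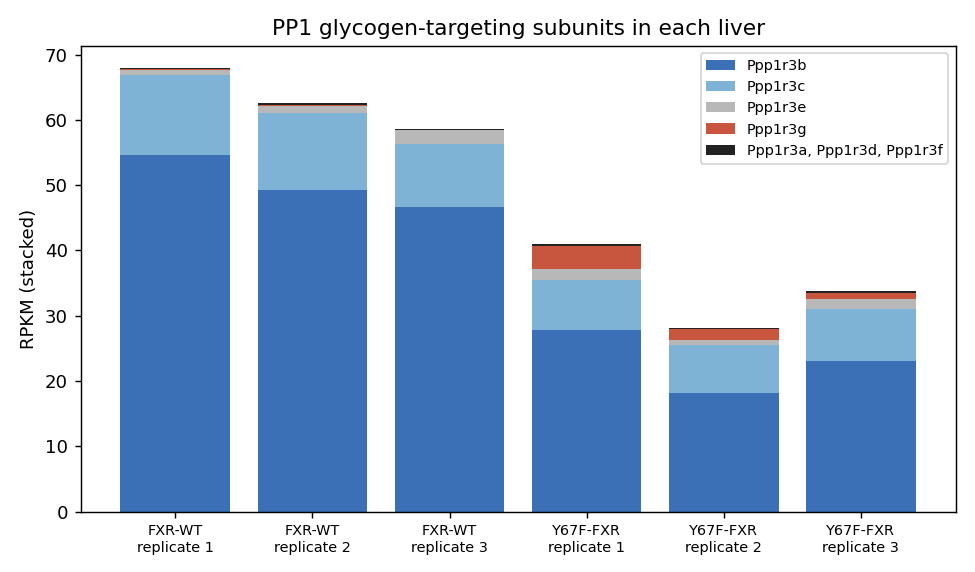
Summed level of the PP1 glycogen-targeting subunits in each liver, in RPKM, stacked by gene. Each bar is 1 liver. The 3 Y67F-FXR bars (28.2 to 41.0 RPKM) are all shorter than the 3 FXR-WT bars (58.7 to 67.9 RPKM), with less Ppp1r3b and with a visible part from Ppp1r3g that is 2.82% to 8.79% of the bar.

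Of the synthesis genes, glycogen synthase was the one whose groups did not overlap. Gys2 (chromosome 6 of mm9, 142371133 to 142421629, minus strand) was at 188, 209 and 268 CPM in FXR-WT replicates 1 to 3 and at 422, 379 and 339 CPM in Y67F-FXR replicates 1 to 3. Every Y67F-FXR liver was above every FXR-WT liver, and the closest pair, FXR-WT replicate 3 and Y67F-FXR replicate 3, differed 1.26-fold. The means were 222 ± 41.7 and 380.0 ± 41.7 CPM (SD, n = 3 each), with a fitted log2 fold change of 0.78 (SE 0.165). Leaving out single livers moved its log2 fold change between 0.67 and 0.94.
The other synthesis genes overlapped between the groups. Gbe1, the branching enzyme (chromosome 16 of mm9, 70314332 to 70569961, plus strand), ranged from 45.1 to 88.5 CPM in FXR-WT and from 41.3 to 72.1 CPM in Y67F-FXR livers. Its livers were the most variable of the 9 genes in the FXR-WT group, with a coefficient of variation of 32.6%, and its log2 fold change of -0.17 had an SE of 0.278. The libraries showed a trend with gene length. Median deviations of the longest genes were -0.13, 0.004 and 0.111 log2 CPM in FXR-WT replicates 1 to 3. In Y67F-FXR replicates 1 to 3 they were 0.194, -0.166 and -0.01. Within each group Gbe1 ranked the livers in the same order, and the part of this trend in its spread was not tested. Ugp2, which makes UDP-glucose (chromosome 11 of mm9, 21221145 to 21270882, minus strand), was at 286, 321 and 312 CPM in FXR-WT and at 373, 299 and 283 CPM in Y67F-FXR, so that the Y67F-FXR livers held both the highest and the lowest level. Its fitted log2 fold change was 0.05 (SE 0.140).

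The breakdown genes were at nearly the same level in both groups. Pygl, the liver phosphorylase (chromosome 12 of mm9, 71291802 to 71328670, minus strand), was at 237, 281 and 273 CPM in the FXR-WT livers and at 267, 247 and 277 CPM in the Y67F-FXR livers. Both means were 264 CPM, and the fitted log2 fold change was 0.00 with an SE of 0.121. Phka2, the liver alpha subunit of phosphorylase kinase (chromosome X of mm9, 156940098 to 157036810, plus strand), was at 20.4, 23.0 and 24.5 CPM in FXR-WT and at 26.0, 26.0 and 25.1 CPM in Y67F-FXR. These groups did not overlap, but the lowest Y67F-FXR liver was only 1.02 times the highest FXR-WT liver, and the log2 fold change was 0.18 (SE 0.120). The direction of the fitted changes of Gbe1, Ugp2 and Pygl turned when single livers were left out, scaling by library totals put Ugp2 and Pygl on the lower side, and upper quartile factors and the filter at a mean of 1 CPM also put Pygl there, so no direction is read for these 3.

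Across the 9 genes the mean RPKM over the 6 livers ran from Gys2 (113), Ugp2 (101) and Pygl (93.5) through Ppp1r3b (36.6), Gbe1 (22.1), Ppp1r3c (9.50) and Phka2 (4.60) to Ppp1r3g (1.09) and Ppp1r3d (0.0768). The top 3 changed places between the groups. Ugp2 (92.8 to 104 RPKM) led in FXR-WT, where Gys2 (70.9 to 101 RPKM) was below it in all 3 livers, and Gys2 (128 to 159 RPKM) led in all 3 Y67F-FXR livers. Ugp2 and Pygl were neighbours whose ranges overlapped in both groups. From Pygl down to Ppp1r3g, each gene was above the next in all 6 livers. Ppp1r3g and Ppp1r3d had 15 reads each over the FXR-WT livers, so their order there is not resolved.
Within each liver, the RPKM of Gys2 was 0.843, 0.788 and 1.05 times that of Pygl in FXR-WT replicates 1 to 3 and 1.68, 1.63 and 1.30 times that of Pygl in Y67F-FXR replicates 1 to 3. These ratios did not overlap. Pygl had the same mean in both groups, and Gys2 did not. The liver forms were nearly the only forms of their enzymes: Gys2 made up 98.9% ± 0.479 of synthase RPKM in FXR-WT and 99.3% ± 0.0484 in Y67F-FXR, and Pygl made up 98.4% of phosphorylase RPKM in both (SD 0.542 and 0.525, n = 3 each). Phka2 made up 83.2% ± 3.30 and 84.8% ± 0.923 of the alpha subunits of phosphorylase kinase (SD, n = 3 each), the rest being the muscle form Phka1.

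The rest of the pathway was read from a list of 30 other glycogen genes, those left once the genes above were chosen with their values known. A lack of calls among them is therefore not read as a result. Of the 30, 26 were tested. None was called by edgeR's quasi-likelihood test, DESeq2 also called 0 of them, and 2 (Gaa and Ppp1cc) had an unadjusted p under 0.05. The median log2 fold change was 0.02, with 15 genes fitted higher and 11 lower, and the groups did not overlap for 5 of the 26, 3 higher and 2 lower. Over all tested genes 0.972% were called, 0.546% as higher and 0.426% as lower, and 20.6% had groups without overlap, so the count without overlap was near the background. At that share of calls, few or none would be expected among 26 genes. Of all 12453 tested genes, 1670 had an unadjusted edgeR p under 0.05.
Gaa, the lysosomal alpha-glucosidase that degrades glycogen, was at 128, 128 and 119 CPM in FXR-WT and at 147, 172 and 157 CPM in Y67F-FXR. Its groups did not overlap, but it did not pass the test, with a log2 fold change of 0.35 (SE 0.115, adjusted p = 0.237 by edgeR with Benjamini-Hochberg adjustment).
PP1 itself was represented by 3 catalytic subunits. Ppp1cc had a log2 fold change of 0.42 (SE 0.153, adjusted p = 0.278 by edgeR), and its groups did not overlap. Ppp1ca and Ppp1cb did overlap between the groups. Ppp1ca shares exon bases with Rad9, so its count may be incomplete. The next genes by adjusted p were Pgm2, a phosphoglucomutase, at 0.27 (SE 0.120, adjusted p = 0.387 by edgeR), and Calm2, one of the calmodulin genes whose product is a subunit of phosphorylase kinase, at -0.27 (SE 0.136, adjusted p = 0.460 by edgeR).
The muscle and brain forms of the enzymes were low. Gys1 was at 0.884 ± 0.252 RPKM in FXR-WT and 0.994 ± 0.0438 RPKM in Y67F-FXR (SD, n = 3 each), with a log2 fold change of 0.17 (adjusted p = 0.839 by edgeR). Pygb and Pygm had log2 fold changes of 0.02 and -0.04 (adjusted p = 0.993 and 0.984 by edgeR), and both signs turned under other settings. Phkg1, Ppp1r3a, Ppp1r3f and Ppp1r1a were below the low-count filter, the last with no read in any liver.

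**Figure D3:**
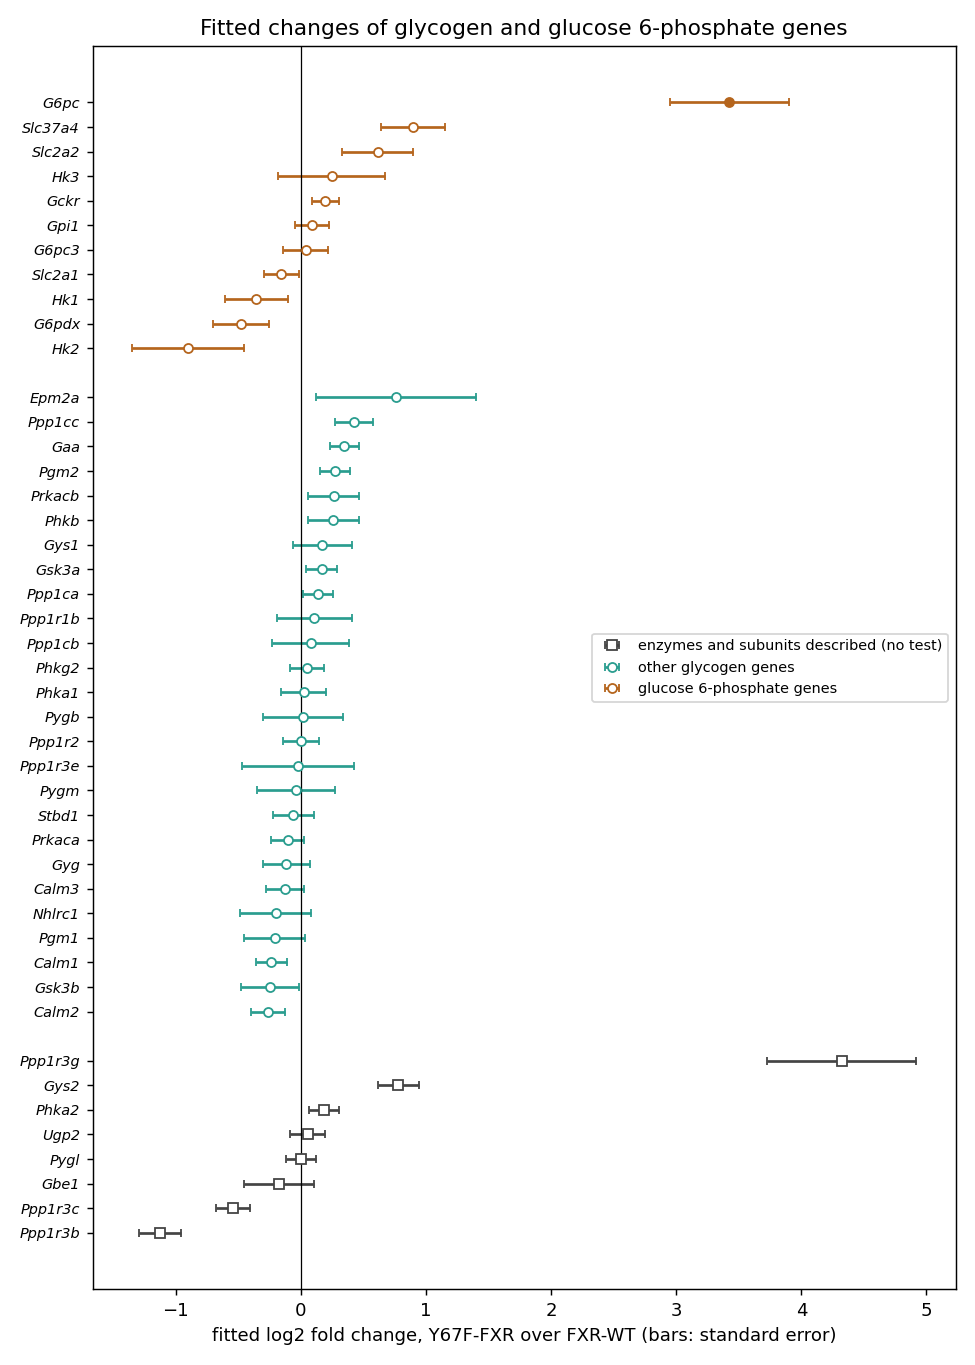
Fitted log2 fold change of Y67F-FXR over FXR-WT for the 8 enzymes and targeting subunits that passed the low-count filter (squares, no test), 26 other glycogen genes and 11 genes around glucose 6-phosphate, with bars for the standard error and filled circles for genes called. The squares run from Ppp1r3b at -1.13 to Ppp1r3g at 4.32, the only filled circle is G6pc at 3.42, and the other glycogen genes lie between -0.27 and 0.76.

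Glucose 6-phosphate joins glycogen with blood glucose, and 11 genes around it were examined beside the glycogen genes. Of these, 1 was called by edgeR's quasi-likelihood test, G6pc, and the groups did not overlap for 4 (G6pc, Slc37a4 and Gckr higher and G6pdx lower in Y67F-FXR, Gckr and G6pdx named after their values were seen), beside 0.972% called and 20.6% without overlap among all tested genes.
G6pc, the glucose 6-phosphatase that releases free glucose, was at 13.3, 52.6 and 31.5 CPM in FXR-WT and at 471, 281 and 293 CPM in Y67F-FXR. Its log2 fold change was 3.42 (SE 0.475, adjusted p = 0.0244 by edgeR). The groups did not overlap, while the FXR-WT livers differed widely among themselves. The call was lost without FXR-WT replicate 3 (adjusted p = 0.105 by edgeR), without Y67F-FXR replicate 1 (adjusted p = 0.0571) and without Y67F-FXR replicate 3 (adjusted p = 0.0810). The log2 fold change of G6pc in these fits was 3.40, 3.14 and 3.54, in that order.
Slc37a4, the transporter that brings glucose 6-phosphate to the phosphatase, was at 212, 184 and 135 CPM in FXR-WT and at 264, 458 and 268 CPM in Y67F-FXR, without overlap. It was not called, with a log2 fold change of 0.90 (SE 0.257, adjusted p = 0.169 by edgeR).

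**Figure D4:**
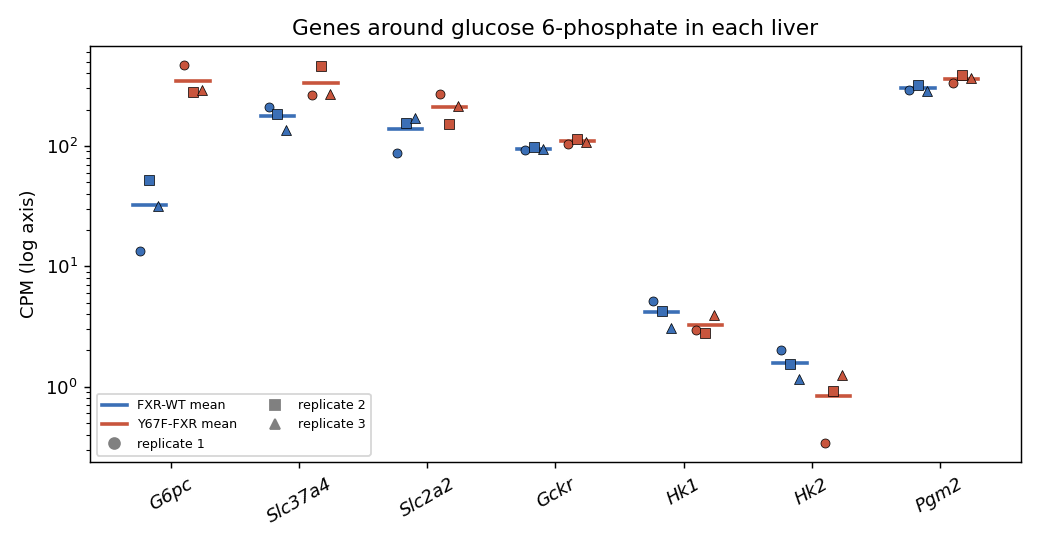
Level of genes that make, carry or use glucose 6-phosphate in each liver, in CPM on a log axis. Points are single livers (n = 3 per group), marked by replicate, and bars are group means. G6pc lies at 13.3 to 52.6 CPM in FXR-WT and at 281 to 471 CPM in Y67F-FXR livers. Slc37a4 and, by a small margin, Gckr and Pgm2 also lie higher in every Y67F-FXR liver. Slc2a2, Hk1 and Hk2 overlap.

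The 5 tested genes whose profile over the 6 livers was most like that of Ppp1r3g were found by the smallest root mean square difference of log2 CPM, each gene centred on its own mean. They were G6pc (0.667), Gm15441 (0.787), Got1 (0.851), Plin4 (0.872) and 2410018M08Rik (0.905). Each was higher in all 3 Y67F-FXR livers, which a likeness to Ppp1r3g requires. Got1, an aspartate aminotransferase, was at 89.3, 105 and 78.5 CPM in FXR-WT and at 463, 485 and 436 CPM in Y67F-FXR, with far less spread among Y67F-FXR livers than Ppp1r3g had. Exon bases of Gm15441 overlap those of Txnip, and exon bases of Plin4, a lipid droplet protein gene, overlap those of Hdgfrp2, so the counts of both are uncertain. None of the 9 genes of glycogen enzymes and targeting subunits shares exon bases with another gene.

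The livers were whole tissue, in which fewer cells of a type and less RNA per cell cannot be told apart. The summed level of 5 stellate cell markers was 58.1 to 80.2 CPM in FXR-WT and 46.0 to 56.0 CPM in Y67F-FXR livers. Of the 5, 4 were fitted lower and 0 were called by edgeR. An unadjusted edgeR p under 0.05 was found for 3 of them, and for 1670 of all 12453 tested genes. Lrat and Col1a1 were lower without overlap, while Des and Acta2 overlapped. Acta2 was high in FXR-WT replicate 1 alone (9.88, against 1.60 and 1.56 CPM in replicates 2 and 3). Reln, the most abundant marker, had means of 33.7 CPM in FXR-WT and 34.6 CPM in Y67F-FXR. None of the 5 was at 0. Their part in the values of the targeting subunits was not tested. The summed levels of Kupffer cell and leukocyte markers (67.7 to 100.2 and 53.0 to 112 CPM), cholangiocyte markers (9.29 to 13.9 and 12.0 to 12.2 CPM) and endothelial markers (90.6 to 107 and 93.1 to 97.7 CPM) overlapped between FXR-WT and Y67F-FXR livers. Within the endothelial list, Lyve1 was lower in every Y67F-FXR liver (20.8, 14.4 and 9.07 CPM in FXR-WT, and 8.46, 7.36 and 8.02 CPM in Y67F-FXR) but was not called, and its part was not tested either. Skeletal muscle markers stayed at or below 0.293 CPM in all livers.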

How the data were processed

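RNA-seq libraries came from 6 livers, 3 for each form of FXR. The authors deposited raw read counts per gene. Per the submitters' notes, reads were trimmed with Trimmomatic 0.36, aligned with STAR to mm9 and counted with featureCounts 1.4.6-p4. Strand was not used, each read end counted on its own, and reads with multiple genes or positions were dropped. The authors' own table of log2 fold changes, mean log2 CPM, p-values and false discovery rates was not used.

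The analysis ran in R 4.3.3 and used edgeR 4.0.16 (filterByExpr with a minimum count of 10, TMM factors, glmQLFit and glmQLFTest) on all 6 libraries, which gave 12453 tested genes and a common biological coefficient of variation of 0.194. Calls used p-values adjusted by Benjamini-Hochberg over all tested genes (threshold 0.05) and a fold above 1.5. Standard errors come from the F statistic. RPKM used the lengths in the count files. At totals of 19551113 to 22053320 reads, 1 read was worth 0.0432 to 0.0546 CPM. Intervals for low counts are Poisson intervals at 95% and cover counting error only. They treat read ends as independent, though both ends of a fragment could be counted, and so are too narrow. Gene coordinates are mm9, and promoters are RefSeq's on GRCm38.p6. Levels per liver were plotted with matplotlib 3.10.9.

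The genes described and the lists were chosen with earlier results of these data known. Besides the 9 genes, those named are Gys1, Pygb, Pygm and the 5 other glycogen genes with the smallest adjusted p, the called and the 3 first glucose 6-phosphate genes by adjusted p, and the 5 genes most like Ppp1r3g. Where the lists or this rule held a gene that is not reported here, it was left out of the text, figures and list counts and not replaced. Further pathway genes and markers are named by role, without a test of their own. The labels do not say that replicates were separate litters or batches, and p-values measure the spread between these livers. Alternatives were DESeq2 1.42.0, other scaling factors and filters, a loess offset for gene length (span 0.3), calls without the fold minimum, a replicate block, and leaving out each liver in turn.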

Additional observations from a re-analysis of the deposited data

How the results depend on the processing

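Of 182 log2 fold changes of named genes outside the glycogen enzymes and targeting subunits described, computed under the alternatives, 163 kept their direction and side of the threshold. The signs that turned were those of Pygb, to -0.054 with library totals and from -0.26 to 0.24 with a liver left out, and of Pygm, from -0.24 to 0.13 with a liver left out. The count of all called genes was 121, and it was 431 with DESeq2, 247 with the gene length offset and 9 to 66 with a liver left out. DESeq2 called Slc37a4 (adjusted p = 0.0288), making 2 calls among the glucose 6-phosphate genes instead of 1. With library totals, which moved the median log2 fold change of all genes to -0.06, 3 of the 8 glycogen enzymes and targeting subunits were fitted higher instead of 5, 4 had groups without overlap instead of 5, and 43.3% of all calls were higher instead of 56.2%. With a liver left out, 3 to 6 of the 8 were fitted higher, 5 to 6 had groups without overlap, and 0 to 1 of the glucose 6-phosphate genes were called. All 112 log2 fold changes of the 8, for which no call is given, moved by less than the SD between livers, and within it those of Gbe1, Ugp2 and Pygl turned sign. The other glycogen genes gave 0 calls under every alternative, and the order of the 9 RPKM levels did not change under those tried for it. With fewer livers the tests had less power. The cause of the other moves was not tested.

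Replicate numbers did not pair the livers: same-numbered livers correlated at -0.52, -0.08 and 0.12 (replicates 1, 2 and 3), and not every liver correlated best with its own number. With the replicate number as a block (replicate block), 8 genes were called, 0 of them glucose 6-phosphate genes. For G6pc the log2 fold change was 3.55 with the block and 3.42 without it, and the adjusted p with the block was 0.119 by edgeR. Depth limits what can be said of Ppp1r3g in FXR-WT livers and of Ppp1r3d in all livers, at 4 to 6 reads each.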
